A study of Mus musculus with 6 samples.

Results

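The immediate early response genes were followed as a set of 10 transcripts: Fos, Fosb, Fosl2, Jun, Junb, Jund, Egr1, Nr4a1, Ier2 and Klf4. They were picked by gene symbol, and all 10 were found among the 54532 genes of the count table and passed the filter on low counts that left 14774 genes for testing. Polyadenylated RNA of the left ventricle was sequenced from 6 male mouse hearts, 4 weeks after aortic banding (AB), a narrowing of the aorta that loads the left ventricle with pressure. The TG group (n = 3, genotype HINT2CTG-Myh6Cre) carried a CAG-driven transgene for HINT2, a mitochondrial nucleotide-binding protein. A Myh6 Cre switched it on in cardiomyocytes after tamoxifen at 5 mg/kg per day for 7 days. The NTG group (n = 3) was labelled C57BL/6J, and whether these mice received tamoxifen or carried Cre is not given in the sources used here. Every mouse was banded at 8 to 10 weeks of age, so no value below speaks to hearts without pressure load. The sources used here do not state how long each ventricle lay between excision and RNA extraction.

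Immediate early genes are transcribed within minutes of a stimulus, from transcription factors already present in the cell, and their mRNAs decay quickly. Growth factors, stretch, calcium entry and adrenergic drive can all raise them through kinase cascades that end on serum response factor and CREB. In the heart they are known for rising early after pressure overload, and they are also known to rise when tissue is cut, warmed or dissociated. Most encode transcription factors, among them the Fos and Jun proteins that pair to form AP-1.

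The libraries held 14863568 to 17581220 counted reads. The library NTG 1 stood apart from its group. It held 12 counts of Hint2, against 545 and 559 in NTG 2 and NTG 3 and 793, 828 and 859 in TG 1 to TG 3, so it was low even for its own group. Its label is therefore in doubt, and NTG 1 names it below only as labelled. Hint2 averaged 52.4 ± 5.09 CPM (reads scaled to a common library size by TMM factors, SD, n = 3) in TG and 20.7 ± 17.3 in NTG (log2 fold change 1.33 ± 0.86 SE, adjusted p = 0.433, edgeR). Without NTG 1 the difference was 0.77 (adjusted p = 0.0212, edgeR). Along the first principal component (52.3% of the variance), the position of NTG 1 was -5.08, between NTG 3 at 29.3 and TG 2 at -10.7. The test of the 10 genes, the gene lists and their named genes is therefore given with and without it. So is the median spread of the 10 genes and of all genes. Unless another left-out library is named, all else is given over the 6 libraries. Cardiomyocyte markers were abundant in every library, with a summed level of 8 genes between 20657 and 37570 CPM, as a ventricle should show.

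The window around the transcription start was searched for elements known from early response genes, and no element searched was in every window. RefSeq promoter entries (build GRCm38.p6, 250 bases before to 50 bases after the start) were searched for 8 of the 10 genes. Egr1 and Ier2 were not searched, so the counts out of 8 say nothing of their promoters. The core TGACG of the cAMP response element, searched on both strands, lay in 5 of these 8, against 20.8% of 32851 promoters of the same length. The full element TGACGTCA, which contains that core, was in 0 of 8 and in 1.79% of all promoters. The AP-1 site TGANTCA was in 0 of 8 and in 7.81% of all, the CArG box bound by serum response factor was in 0 of 8 and in 1.63%, and TATAAA was in 2 of 8 (Fos and Junb) and in 13.6%. Such matches describe letters in a short window and say nothing of binding. The promoters shown belong to the Fos and Jun family genes and the nuclear receptor gene that held the core, and capitals mark TGACG or its reverse complement CGTCA. Fos lies at chr12:85473640-85473939 on the plus strand and Fosb at chr7:19309996-19310295 on the minus strand. Junb lies at chr8:84978699-84978998 on the minus strand, and Nr4a1 at chr15:101266596-101266895 on the plus strand, around a start that is 12577 bases inside the gene model of the table. Each is written 5′ to 3′ on its gene's strand.
Fos: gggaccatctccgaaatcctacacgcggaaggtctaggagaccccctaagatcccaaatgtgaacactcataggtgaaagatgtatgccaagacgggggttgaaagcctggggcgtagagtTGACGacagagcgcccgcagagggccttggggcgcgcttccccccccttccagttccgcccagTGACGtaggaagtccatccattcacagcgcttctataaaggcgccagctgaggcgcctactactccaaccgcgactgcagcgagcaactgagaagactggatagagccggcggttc
Fosb: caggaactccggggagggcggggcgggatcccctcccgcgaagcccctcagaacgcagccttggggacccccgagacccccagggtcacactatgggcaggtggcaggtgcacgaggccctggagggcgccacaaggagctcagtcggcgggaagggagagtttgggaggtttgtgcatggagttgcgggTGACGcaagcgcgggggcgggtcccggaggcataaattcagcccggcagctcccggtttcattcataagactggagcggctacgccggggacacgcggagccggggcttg
Junb: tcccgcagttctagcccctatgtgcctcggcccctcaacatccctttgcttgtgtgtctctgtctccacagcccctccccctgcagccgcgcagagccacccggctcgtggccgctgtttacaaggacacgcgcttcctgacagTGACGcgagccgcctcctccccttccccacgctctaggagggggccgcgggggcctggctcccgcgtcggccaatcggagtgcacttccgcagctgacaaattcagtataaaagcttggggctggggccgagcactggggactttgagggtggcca
Nr4a1: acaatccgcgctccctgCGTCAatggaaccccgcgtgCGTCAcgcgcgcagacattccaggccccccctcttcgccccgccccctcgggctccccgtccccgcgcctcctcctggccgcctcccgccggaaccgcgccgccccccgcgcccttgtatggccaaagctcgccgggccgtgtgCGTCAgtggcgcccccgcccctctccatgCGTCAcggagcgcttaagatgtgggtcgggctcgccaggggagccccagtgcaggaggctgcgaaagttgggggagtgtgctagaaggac
The cores began 129 and 66 bases before the Fos start, 60 before that of Fosb and 106 before that of Junb. Nr4a1 held 4, and Klf4, not shown, held 1. The TATAAA of Fos began 33 bases before its start, whereas that of Junb began at the start used. The starts used for Jund, Fosl2 and Junb lie 1210, 671 and 30 bases from the gene starts of the table.

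No immediate early gene passed the test between TG and NTG. A call asked for an edgeR quasi-likelihood adjusted p below 0.05 together with a log2 difference beyond 0.5, and 0 of 10 met it. Nor was any other gene called (0% of 14774), so this count says nothing particular about these 10. Of the 10, 5 were higher in TG and 5 lower, with a median log2 fold change of 0.014 beside -0.0081 over the whole table. This median was -0.26 without TG 2 and 0.36 without TG 3. When p was left unadjusted, 1 of 10 was below 0.05, Fosl2 with the lower level in TG, where 18.6% of all genes did so. In 0 of 10 did the TG and NTG libraries separate without overlap, against 23.5% of all genes. DESeq2 on the same counts called 0 of 10 and 3.93% of all genes.

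**Figure D1:**
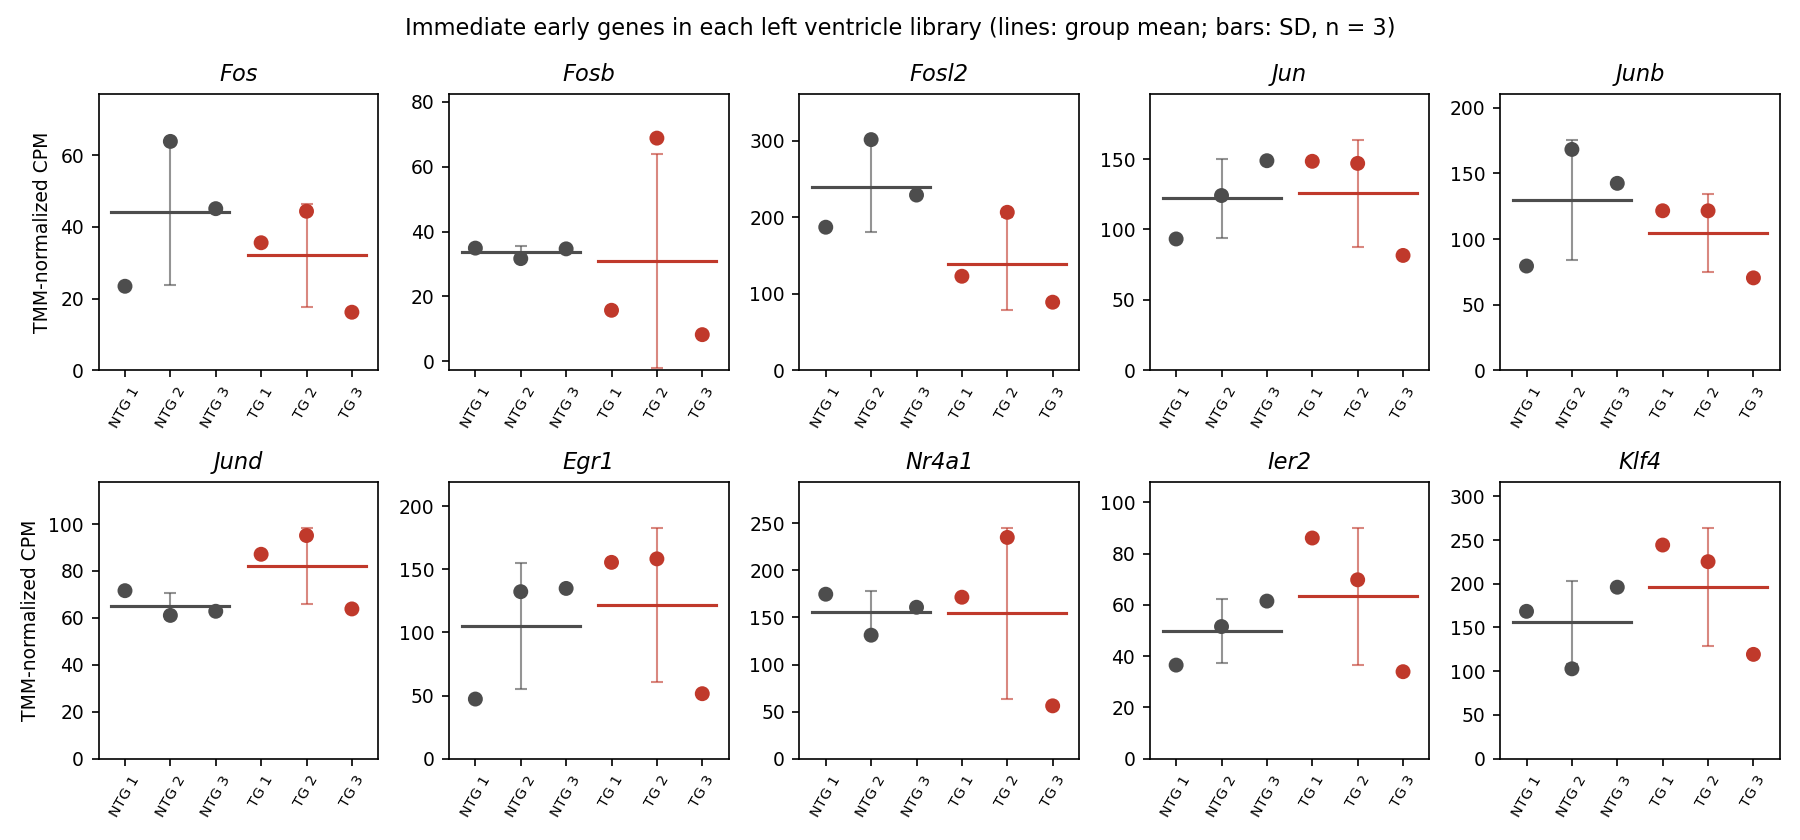
Level of each immediate early gene in TMM-normalized CPM (linear axis, a scale for each panel) in the 6 libraries, with lines for each group's mean and bars for its SD (n = 3). The TG points spread widely for most genes, and in each panel the 2 groups overlap.

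The Fos family held the gene with the largest log2 difference of the 10, Fosl2, and the gene with the widest spread, Fosb. Fos, the founding AP-1 subunit (12:85473890-85477273, plus strand, GRCm38), stood at 23.4, 63.8 and 45.1 CPM in NTG 1 to NTG 3. It stood at 35.6, 44.3 and 16.2 CPM in TG 1 to TG 3. NTG 2 was highest and TG 3 lowest, and the rest interleaved. The group means were 44.1 ± 20.2 CPM in NTG and 32.0 ± 14.4 in TG (SD, n = 3), a log2 fold change of -0.46 ± 0.46 (SE, 95% interval -1.56 to 0.63, edgeR adjusted p = 0.606). Its counts ran from 262 to 1202, so counting error is small beside the spread between hearts. Fosl2, which encodes the Fos relative FRA2 (5:32135801-32157842, plus strand), read 187, 302 and 229 CPM in NTG. In TG it read 123, 207 and 89.0 CPM. Only TG 2 reached into the NTG range, passing NTG 1. Its log2 fold change was -0.78 ± 0.32 (95% interval -1.54 to -0.016), a level in TG of 0.583 times that in NTG. By edgeR its unadjusted p was 0.0464 and its adjusted p 0.261. DESeq2 gave -0.77 with an adjusted p of 0.107. By edgeR the unadjusted p was 0.121 with no filter on low counts, and on leaving out 1 library it was over 0.05 in each case except without TG 2. Summed fibroblast markers moved the same way over the libraries, at 4709, 10852 and 6760 CPM in NTG and 2616, 4017 and 2317 in TG. Of these markers 8 of 8 were lower, and none was at 0 in any library. By edgeR 6 of them were at an unadjusted p under 0.05, against 9.76% of all genes in that direction. Their part in the Fosl2 value was not tested, and in bulk tissue fewer cells of a type cannot be told apart from less RNA per cell.

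Fosb, a further Fos relative, best known in long-lasting responses of neurons (7:19302696-19310051, minus strand), read 34.9, 31.7 and 34.7 CPM in the NTG hearts. The TG hearts read 15.7, 68.8 and 8.21 CPM. The NTG hearts were nearly level, and the TG hearts lay on both sides of them, TG 2 far above and TG 1 and TG 3 below. Group means were close, 33.7 ± 1.80 CPM in NTG and 30.9 ± 33.0 in TG (SD, n = 3), with a log2 fold change of -0.12 ± 0.70 (edgeR adjusted p = 0.943). The value depends on each TG library and on the method, at -0.66 with limma-voom. Without TG 2 it was -1.50 (unadjusted p = 0.000916, adjusted p = 0.137, edgeR), without TG 1 it was 0.19 and without TG 3 it was 0.33.

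No gene of the Jun family passed the test either. Jun, the classic partner of Fos (4:95049034-95052222, minus strand), stood at 93.3, 124 and 149 CPM in NTG and at 148, 147 and 81.5 CPM in TG. Its log2 fold change was 0.04 ± 0.26 (95% interval -0.58 to 0.67), and with scaling by library size alone it turned to -0.046. It also turned to -0.12 without NTG 1, -0.099 without TG 1 and -0.087 without TG 2. The value stayed positive without NTG 2 (0.052), NTG 3 (0.21) or TG 3 (0.27). Junb, a Jun relative that often restrains Jun (8:84974484-84978718, minus strand), stood at 79.4, 168 and 142 CPM in NTG and at 122, 121 and 70.4 CPM in TG. TG 3 was the lowest library for both, and NTG 1 was the next lowest. For Junb the log2 fold change was -0.32 ± 0.32 (95% interval -1.07 to 0.44). Jund, the Jun protein that many resting cells already hold (8:70698949-70700616, plus strand), stood at 71.6, 61.1 and 62.8 CPM in NTG and at 87.1, 95.1 and 63.8 CPM in TG. TG 1 and TG 2 lay above all NTG hearts, while TG 3 lay among them. Its log2 fold change was 0.33 ± 0.15 (95% interval -0.018 to 0.68, edgeR adjusted p = 0.287). Jun overlaps the antisense gene Junos, Junb overlaps Prdx2 on the other strand, and Jund overlaps the antisense Gm11175. Whether counting used strand is not given in the sources used here, so reads of these pairs cannot be told apart.

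Egr1, a zinc finger factor read widely as a marker of recent stimulation (18:34859823-34864984, plus strand), had 47.2, 132 and 135 CPM in NTG. It had 155, 158 and 51.5 CPM in TG. Each group held 1 low library, NTG 1 and TG 3, well below its companions. With those 2 hearts on opposite sides, the log2 fold change was 0.21 ± 0.53 (95% interval -1.05 to 1.48), and it was -0.14 without NTG 1 and 0.58 without TG 3. Klf4, a zinc finger factor with roles in vessel wall and macrophages (4:55527143-55532466, minus strand), had 168, 103 and 196 CPM in NTG and 244, 225 and 119 CPM in TG. Its log2 fold change was 0.33 ± 0.33. TG 1 and TG 2 exceeded every NTG heart and TG 3 did not.

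Nr4a1, the orphan nuclear receptor Nur77 (15:101254269-101274795, plus strand), had 175, 131 and 161 CPM in NTG. It had 171, 235 and 56.1 CPM in TG. The means were almost equal, 156 ± 22.2 CPM in NTG and 154 ± 90.6 in TG (SD, n = 3), while TG 2 and TG 3 marked the top and the bottom of all 6 hearts. The log2 fold change of -0.01 ± 0.46 has a 95% interval of -1.12 to 1.10, wide enough to hold a change of either sign. Ier2, which encodes a small nuclear protein of the growth factor response (8:84661331-84662852, minus strand), had 36.5, 51.6 and 61.5 CPM in NTG and 86.1, 69.8 and 34.0 CPM in TG. TG 1 and TG 2 again exceeded all NTG hearts, and TG 3 fell below them. Its log2 fold change was 0.34 ± 0.35 (95% interval -0.50 to 1.18).

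**Figure D2:**
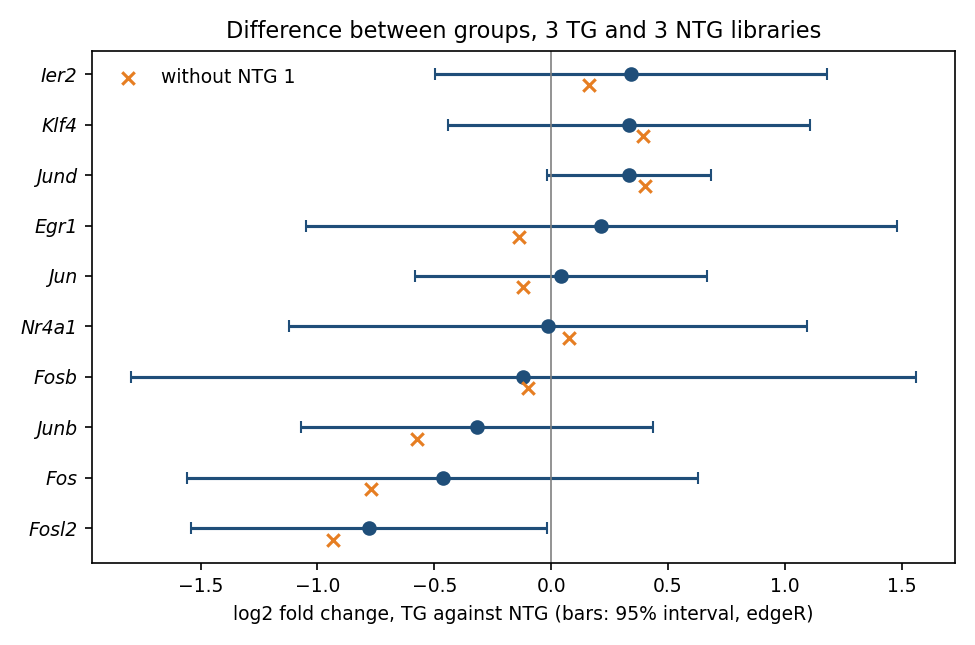
Log2 fold change of TG over NTG for each immediate early gene (circles) with its 95% interval (bars), by edgeR, and the value without NTG 1 (crosses). Each interval except that of Fosl2, which ends at -0.016, includes 0, and those of Fosb and Egr1 are the widest.

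Without NTG 1, edgeR called 5.52% of 15136 genes and again 0 of 10 immediate early genes, whose median log2 fold change was -0.11. The libraries of 4 of the 10 no longer overlapped, with Fos, Fosl2 and Junb lower and Jund higher in TG, where 46.7% of all genes did so. Only Jund was under an unadjusted p of 0.05, against 27% of all genes. Its log2 fold change was then 0.40, with an adjusted p of 0.167 (edgeR). Fosl2 had -0.93 with an adjusted p of 0.196 (edgeR). Fos then had -0.77 (adjusted p = 0.355, edgeR) and Junb -0.58 (adjusted p = 0.206, edgeR). Values for the rest were -0.098 for Fosb, -0.12 for Jun, -0.14 for Egr1, 0.076 for Nr4a1, 0.16 for Ier2 and 0.39 for Klf4. Leaving out TG 2 left 2 of 10 without overlap (Fosb and Fosl2, both lower, background 41.1%) and those same genes at an unadjusted p under 0.05 (background 19.3%). Leaving out TG 3 left 4 of 10 without overlap (Jund, Egr1, Ier2 and Klf4, all higher, background 31.6%). Jund and Ier2 were then at an unadjusted p under 0.05 (background 11.4%).

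TG 3 was the lowest for most of the 10 genes, while the highest heart varied. Each gene's log2 level was centred on its mean over the 6 hearts, and the 10 centred values were averaged within each heart. The averages were -0.23, 0.18 and 0.26 in NTG 1 to NTG 3 and 0.16, 0.49 and -0.86 in TG 1 to TG 3. TG 3 lay below the mean for 10 of 10 genes and was the lowest heart for 7 of them. TG 2 lay above the mean for 10 of 10 and was the highest heart for 4. NTG 1 lay below the mean for 6 of 10 and was the lowest heart for 1, Egr1. NTG 2 was the highest heart for 3 (Fos, Fosl2 and Junb) and the lowest for 2 (Jund and Klf4). The lowest and the highest heart thus carried the same genotype. The share of all genes tested that were lowest or highest in each heart was not counted. These counts are therefore not shown to be particular to the 10 genes. TG 3 was also the lowest library along the first principal component, at -36.5. Summed over the 10 genes, the level was 590 CPM in TG 3 and 1371 in TG 2, with 1189 in TG 1 and 916, 1168 and 1216 in NTG 1 to NTG 3.

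**Figure D3:**
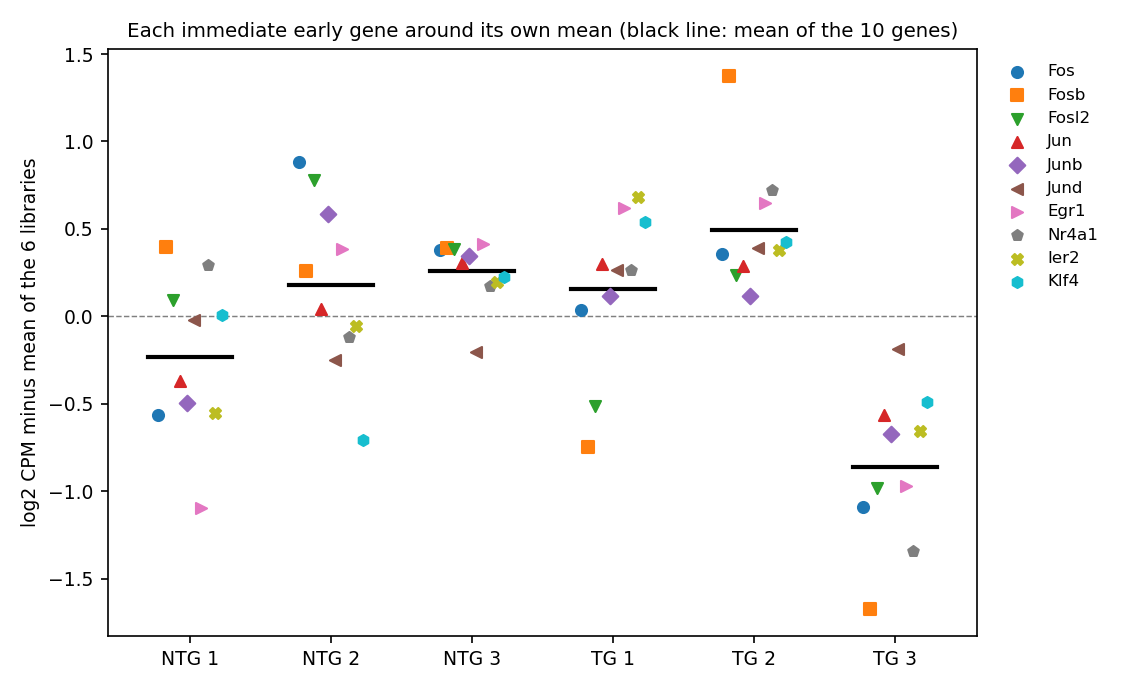
Log2 level of each immediate early gene centred on its own mean over the 6 libraries, one symbol per gene, with the average of the 10 as a black line. All symbols are above 0 in TG 2 and below 0 in TG 3, where the average is -0.86.

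Another measured property set TG 3 and NTG 1, the hearts with the lowest averages, beside each other. Markers of atrial cardiomyocytes (Sln, Myl7 and Myl4) summed to 167 CPM in TG 3 and 67.4 in NTG 1. They summed to 29.2 CPM in TG 2 and to 2.18 to 4.54 in the other 3 hearts. TG 2, with the highest immediate early average, came next after NTG 1, and Myl7 was at 0 in NTG 3. The part of these transcripts in the immediate early values was not tested. The mitochondrial share of counts was 21.5, 16.0 and 20.3% in TG 1 to TG 3 and 19.2, 13.4 and 14.3% in NTG 1 to NTG 3, and its part was not tested either. Endothelial markers were nearly level at 2363 to 2811 CPM. Leukocyte markers summed to 831, 1470 and 838 CPM in NTG and 577, 725 and 829 CPM in TG, with 8 of 8 lower (4 at an unadjusted p under 0.05, against 9.76% of all genes in that direction). Erythroid markers summed to 1310, 2245 and 1851 CPM in NTG and 908, 762 and 862 CPM in TG, with 5 of 5 lower and 5 at that level, whereas 7 of 8 cardiomyocyte markers were higher in TG. Without NTG 1, edgeR called 5 of 5 erythroid markers and 1 of 8 in each of the fibroblast, leukocyte, endothelial and cardiomyocyte lists, where 5.52% of all genes were called. Smooth muscle and pericyte markers summed to 1527, 1314 and 1688 CPM in NTG and 1699, 1628 and 1396 CPM in TG, with 4 of 8 higher, 3 of them (Myh11, Acta2 and Cnn1) at an unadjusted p under 0.05, against 8.83% of all genes in that direction. The part of these markers in the immediate early values was not tested.

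The 10 genes did not all share one pattern. As a root mean square distance between centred log2 levels over 6 hearts, Jun and Ier2 were the closest pair at 0.191, followed by Fos and Junb at 0.236. Fosb and Egr1 were the farthest apart at 0.925. Jun lay nearest to the average of the set (0.180) and Fosb farthest (0.667). Of the genes outside the set, Slc25a25, which encodes a calcium-regulated mitochondrial ATP carrier, was nearest to that average at 0.0679, with 30.0, 41.5 and 40.7 CPM in NTG and 37.6, 51.5 and 21.2 CPM in TG. Next came 9130019O22Rik (0.103), Sox9 (0.113), Dtl (0.121) and Btg2 (0.139). Btg2, an antiproliferative gene that is itself counted among the early response genes, had 124, 149 and 152 CPM in NTG and 183, 211 and 88.9 CPM in TG. Nearest to Fos were Cfap157 (0.186), Pkd1l3 (0.207) and Pcdh9 (0.215), with levels from 0.247 to 6.43 CPM. All these likenesses rest on 6 points that share libraries and depth, chosen from 14774 genes.

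Spread between hearts was larger for these genes, Jund apart, than for most genes tested. The ratio of the highest to the lowest heart ran from 1.56 for Jund and 1.83 for Jun to 3.95 for Fos, 4.19 for Nr4a1 and 8.38 for Fosb. The biological coefficient of variation, edgeR's estimate of the relative SD between hearts of a group beyond counting error, ran from 14.8% (Jund) to 58.3% (Fosb). Its median was 29.2% over the 10 genes and 16.2% over all genes tested. Genes of like level, within 0.5 log2 units, had a lower coefficient than Fosb in 99.8% of cases, than Egr1 in 99.6%, than Fos in 99.1% and than Nr4a1 in 99.0%. For Jund this share was 80.9%. The median SD of log2 level within a group was 0.547 for the 10 genes and 0.206 for all, and without NTG 1 it was 0.589 and 0.189. Over all 6 hearts it was 0.462 for the other early transcription factors, 0.388 for heat shock genes and 0.353 for the other early products.

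**Figure D4:**
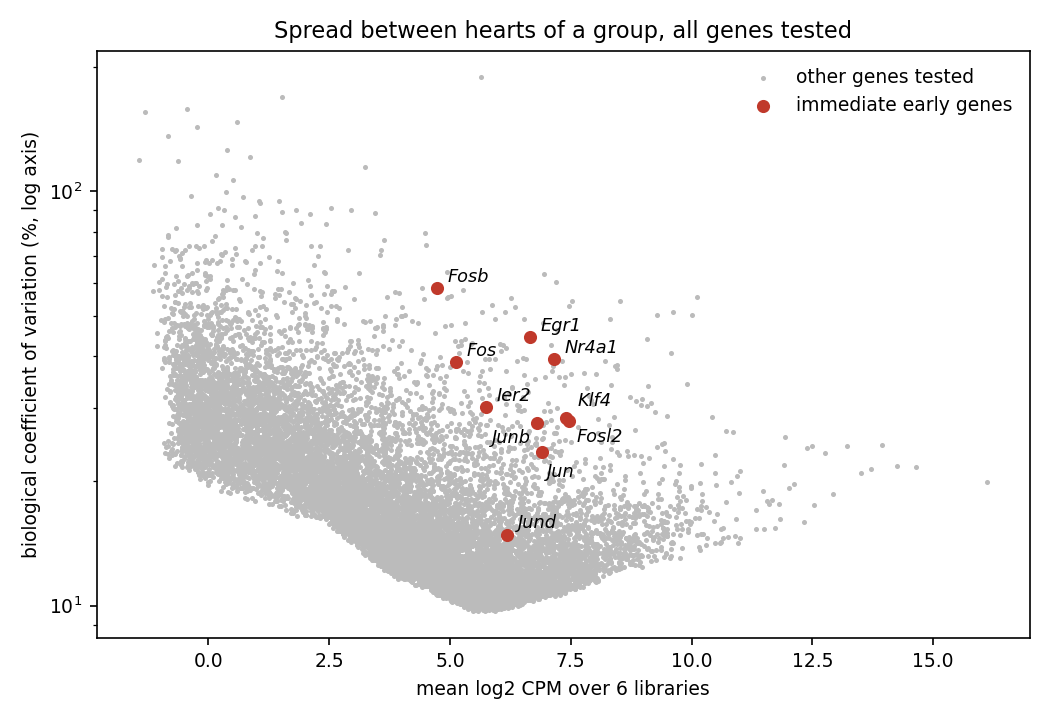
Biological coefficient of variation (percent, log axis) against mean log2 CPM for all genes tested (grey) and the 10 immediate early genes (named points). The named points lie above most genes of their level, from Jund at 14.8% up to Fosb at 58.3%.

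Per kilobase of gene length, the levels over all 6 hearts ran in a shallow order. Klf4 was highest at 57.7 ± 18.6 CPM per kilobase (SD, n = 6), then Junb at 51.0 ± 16.2, Nr4a1 at 44.1 ± 16.8, Jund at 44.1 ± 8.56, Jun at 38.8 ± 9.40 and Ier2 at 37.2 ± 13.2. Neighbours among these 6 genes differed by less than their spread, and each was above the next in 4 or 5 of 6 hearts. Below them came Egr1 at 25.3 ± 11.3, under Ier2 in 6 of 6 hearts, then Fosl2 at 19.6 ± 7.87 and Fos at 16.2 ± 7.25. Fosb was lowest at 5.18 ± 3.36 CPM per kilobase, under Fos in 6 of 6 hearts.

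The other early response genes were read from lists taken apart from these 10. Of 19 other immediate early transcription factors, 18 could be tested, with 6 higher and 12 lower in TG, a median log2 fold change of -0.24 and 0 called by edgeR. Their average centred level was 0.34 in TG 2 and -0.57 in TG 3, at top and bottom as for the 10 genes. At an unadjusted p under 0.05, 2 of 18 were lower, where 9.76% of all genes were lower at that level. Cebpd, a leucine zipper factor of the acute phase response, had 124, 226 and 173 CPM in NTG and 86.8, 119 and 97.8 CPM in TG. All TG hearts were below all NTG hearts (log2 fold change -0.78, edgeR adjusted p = 0.196), and DESeq2 called it (adjusted p = 0.0267), as did edgeR without NTG 1 (adjusted p = 0.0258). The fibroblast, leukocyte and erythroid marker sums were also lower in every TG heart than in every NTG heart, for leukocytes by a narrow margin, and their part in the Cebpd value was not tested. Maff, a small Maf protein, was the other, with 75.5, 99.3 and 92.2 CPM in NTG and 73.0, 73.5 and 56.5 CPM in TG (log2 fold change -0.40, edgeR adjusted p = 0.217). Nfkbiz, an atypical IκB protein, had the next smallest p (log2 fold change -1.09, edgeR adjusted p = 0.277).

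Among 30 other early products, such as phosphatases, RNA decay factors and secreted proteins, 11 were higher and 19 lower, with a median of -0.10 and 0 called by edgeR. Their average centred level was lowest in TG 3 (-0.38) too, but highest in NTG 2 (0.34), with 0.19 in TG 2. At an unadjusted p under 0.05, 3 of 30 were lower (Hbegf, Ctgf and Pim1), a share close to the 9.76% of all genes. Ctgf, a secreted matricellular protein of scarring, had the largest difference of these 3. It had 868, 1629 and 1307 CPM in NTG and 459, 928 and 241 CPM in TG, where TG 2 overlapped NTG 1 (log2 fold change -1.22, edgeR adjusted p = 0.251). Hbegf, a ligand of the EGF receptor, had -0.46 and Pim1, a serine kinase, had -0.54. The fibroblast marker sums given beside Fosl2 move with this list too, and their part was not tested. Without NTG 1, Maff had -0.50 and Nfkbiz -1.43 (edgeR adjusted p = 0.0595 and 0.0902), and Hbegf had -0.60, Ctgf -1.44 and Pim1 -0.68, none of them called. The list medians were then -0.22 for the other transcription factors, with 1 of 18 called by edgeR (Cebpd), and -0.18 for the other products, with 0 of 30 called.

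Upstream of the response the hearts were far more even. Of 29 factors and kinases that drive early transcription, 14 were higher and 15 lower, the median was -0.0084 and the median SD within a group was 0.140 log2 units. Srf, which encodes serum response factor, had 131, 107 and 122 CPM in NTG and 165, 144 and 136 CPM in TG. The groups did not overlap, by a narrow margin (log2 fold change 0.31, edgeR adjusted p = 0.230). Map2k2, the kinase MEK2, had 0.25 and was the only other one at an unadjusted p under 0.05 (2 of 29 higher, against 8.83% of all genes), and Rps6ka5, the kinase MSK1, had 0.49. Without NTG 1, Srf had 0.37, Map2k2 0.28 and Rps6ka5 0.55, the median of the upstream list was 0.022 and 0 of 29 were called by edgeR. Of 8 AP-1 partners outside the set, among them Fosl1, which also counts with the transcription factors above, 5 were higher and 3 lower, and Batf2 alone was under that mark, with 1.16 to 2.12 CPM in NTG and 2.24, 2.62 and 12.4 CPM in TG. Its difference of 1.95 rests largely on TG 3, and Jdp2 and Atf4 had 0.21 and 0.14. Without NTG 1, Batf2 had 2.27, Jdp2 0.29 and Atf4 0.16, 4 of the 8 were higher and 4 lower, and 0 were called by edgeR.

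Heat shock genes, which respond to protein damage and also to handling, followed another order of hearts. Of 11, 10 were higher in TG and 1 lower, with a median log2 fold change of 0.29, 0 called and 0 at an unadjusted p under 0.05 by edgeR. Their average centred level was 0.42, -0.52 and -0.52 in NTG 1 to NTG 3 and -0.06, 0.49 and 0.19 in TG 1 to TG 3. Hspa1a, the inducible HSP70, had 140, 39.0 and 29.0 CPM in NTG and 81.0, 197 and 110 CPM in TG. The chaperonins Hspe1 and Hspd1 had log2 fold changes of 0.43 and 0.29. Without NTG 1 the list's median was 0.62 and 2 of 11 were called by edgeR, where 5.52% of all genes were, namely Hspe1 (0.78, adjusted p = 0.0264) and Hspd1 (0.615, adjusted p = 0.0388), while Hspa1a had 1.92 (adjusted p = 0.0801). TG 3, lowest for the immediate early genes, was thus above the mean for heat shock genes, while TG 2 was high for both.

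**Figure D5:**
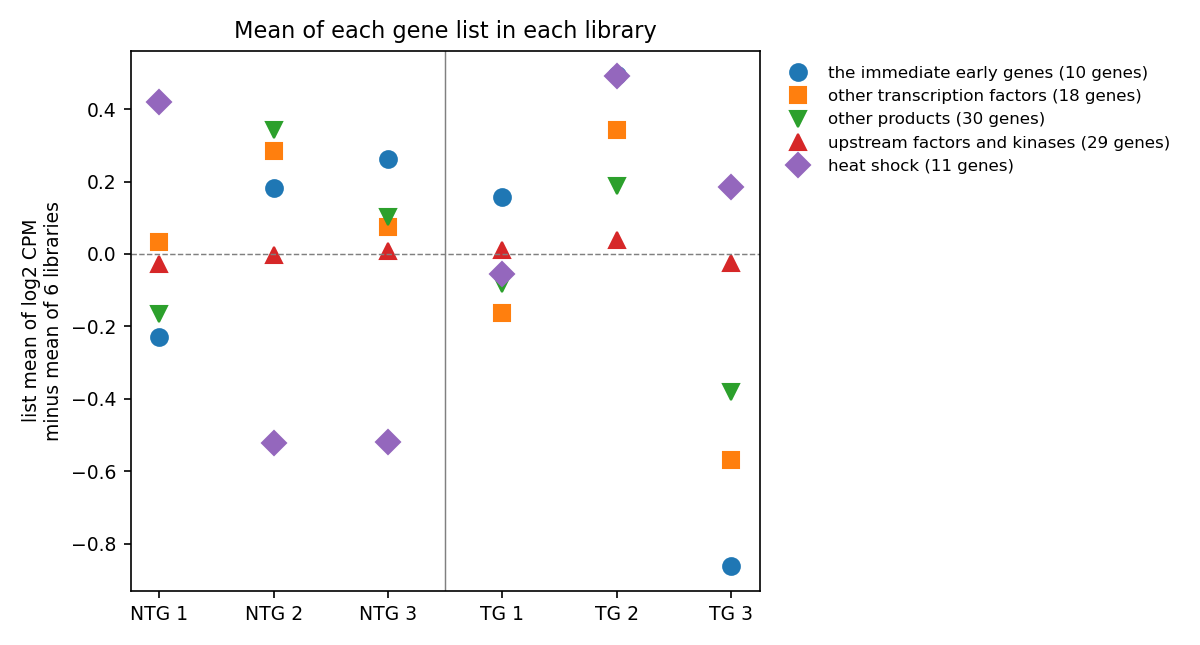
Average centred log2 level per library for the immediate early genes and for the other lists (other early transcription factors, other early products, upstream factors and heat shock genes). TG 3 is lowest for the early response lists, the upstream list stays near 0, and the heat shock list is highest in TG 2 and NTG 1.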

How the data were processed

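The count table holds whole-number read counts per gene, made by the authors with HISAT2 alignment and featureCounts and deposited without normalization, beside a gene length. DESeq2 is named for their own comparison. The submitters' notes name the build GRCh38, a human one, whereas the genes and their positions in the deposited table are those of mouse GRCm38. All columns of sample values matched a labelled sample. Strand and multi-mapping settings are not given in the sources used here. The labels do not state a batch.

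The 10 genes and all lists were chosen with earlier results of these data known. From each pathway list the 3 genes of smallest p are named, with Hint2, the 5 genes nearest to the average of the set and the 3 nearest to Fos. Counts were fitted over all genes with edgeR 4.0.16 in R 4.3.3 (filterByExpr, TMM, robust quasi-likelihood test, Benjamini-Hochberg), 3 TG against 3 NTG libraries, without a replicate block. Calls required an adjusted p below 0.05 with a log2 difference beyond 0.5. CPM used TMM library sizes, and centred log2 levels used a prior count of 2. DESeq2 1.42.0, limma 3.58.1 (voom), a likelihood-ratio test, other scalings, other filters, a replicate block and leaving out each library were tried. Likeness between genes was the root mean square difference of centred log2 levels. No pair of libraries agreed within counting noise. Same-numbered TG and NTG libraries deviated together with r of 0.0807, 0.173 and -0.252, so numbers were not treated as pairs. Totals of 14863568 to 17581220 counts make counting error small for these genes, and p-values measure the spread between libraries. The study's methods describe 3 mice a group, and the labels do not tie each library to a mouse.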

Additional observations from a re-analysis of the deposited data

How the results depend on the processing

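No immediate early gene was called under any of the alternatives run, which were other scalings, filters, tests (DESeq2, limma-voom, likelihood ratio), the replicate block and leaving out each library. Over 160 values of single genes under these alternatives, 148 kept direction and side of the threshold and 12 reversed. These 12 concern Egr1, Fosb, Jun and Nr4a1, whose differences are near 0 beside their error. Jun turned to -0.046 on scaling by library size alone, which moved the median of all genes to -0.0926. Leaving out 1 library at a time gave -0.14 to 0.58 for Egr1, -1.50 to 0.33 for Fosb, -0.12 to 0.27 for Jun and -0.45 to 0.39 for Nr4a1. The other genes kept their sign, with -0.78 to -0.10 for Fos, -1.18 to -0.54 for Fosl2, -0.58 to -0.089 for Junb, 0.21 to 0.48 for Jund, 0.054 to 0.64 for Ier2 and 0.11 to 0.59 for Klf4. It left 0 to 2 of 10 genes at an unadjusted p under 0.05 (10.4 to 27% of all genes) and 0 to 4 without overlap (28.5 to 46.7%). With the replicate block, 2 of 10 genes were at an unadjusted p under 0.05 (21.9% of all genes), Fosl2 (log2 fold change -0.84, edgeR adjusted p = 0.0779) and Jund (0.32, adjusted p = 0.220), and Fosb had -0.66. Of the other early response genes, 1 was called by DESeq2 and 1 by the likelihood-ratio test (Cebpd in both), 2 with the replicate block (Myc and Cebpd) and 0 to 1 on leaving out 1 library. Over all genes the count of calls was 0 in the main edgeR fit and in voom, and 581 in DESeq2. Among other edgeR fits it was 545 by the likelihood-ratio test, 232 with no filter and 231 with the replicate block. It was 836 without NTG 1, 7 without TG 2 and 1 without TG 3, and the cause was not tested. The intervals of these genes are wide, and a p that misses the threshold does not show that levels were equal.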
